A study of Saccharomyces cerevisiae with 14 samples.

Results

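RPD3 encodes a histone deacetylase of budding yeast, and the comparison here is between the way wild-type cells and cells without the gene changed their RNA on entering the diauxic shift. For each gene the change from log-phase cells to cells at the diauxic shift (DS) was taken in both genotypes, and the wild-type change was subtracted from the mutant change. Members were all uniquely named genes with a value in both genotypes at both harvests and at least 1 FPKM in 1 of those 4 conditions. FPKM is fragments per kilobase of transcript, scaled to the sequenced total and here rescaled by the authors to a per-cell level. Of 6602 rows in the deposited table, 6359 genes qualified. Among 6598 unique names, 100 lacked a value in at least 1 of the 4 conditions, 109 lay in a stretch where mutant DS values repeat mutant Q values, and 30 stayed under 1 FPKM. The gene nearest the limit on the inside was YBL044W, whose highest value was 1.00 FPKM, and on the outside YLR366W, at 0.965 FPKM.

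Growing yeast ferments glucose to ethanol; when glucose runs out, cells enter the diauxic shift, stop making ribosomes, turn on stress-protective genes and switch to respiring ethanol and acetate. Rpd3 removes acetyl groups from histones and is brought to promoters by DNA-binding repressors. Ume6 brings it to the URS1 element of meiotic and metabolic genes, and Stb3, Dot6 and Tod6 act with it at the RRPE and PAC elements of ribosome biogenesis genes. Rpd3 has also been described as needed for full activity of some stress and heat shock genes that carry the STRE, the element of the activators Msn2 and Msn4.

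Both strains were Saccharomyces cerevisiae of the W303 background, one wild type and one an rpd3 deletion. Log cultures were taken at an OD600 of 0.4 to 0.6, DS cultures 2 hours after glucose had run out, and Q cells (purified quiescent cells, used only as a further readout) from 7-day cultures on a Percoll gradient. Each condition had 2 isolates, made into 2 libraries, or 4 in wild-type log, where each isolate was prepared with 0.2 and with 1 equivalent of ERCC spike-in; the 4 conditions compared rest on 10 libraries and the Q cells on 4. The deposited values are FPKM scaled by the authors with the spike-ins to a per-cell level, with 1 value per condition, so there is no SD, no test and no known read depth behind any value. A change is a difference of log2(FPKM + 1), 1 unit is 2-fold, and "2-fold" marks the size of a single value, not a tested call. RPD3 itself was at 70.8, 37.7 and 2.35 FPKM in wild-type log, DS and Q, had no value in mutant log, and was at 0.941 and 0.0279 in mutant DS and Q. Markers of glucose exhaustion were higher in DS in both genotypes: PCK1, the gluconeogenic carboxykinase, was at 5.62 and 4.67 FPKM in log (wild type, mutant) and at 4142 and 5405 in DS.

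Promoter elements that recur in the results below are shown first, as examples from genes with large differences. They were read from the RefSeq genome of the S288C strain (assembly R64), not from W303, and each is written on the strand of its gene with the element in capitals; an element on the opposite strand appears as its reverse complement. The RRPE was searched as AAAAATTT and PAC as GATGAG, both elements of ribosome biogenesis genes, and the STRE as AGGGG.
DBP2, RRPE, chrXIV:413486-413511, 137 bases before the gene start: catcgcagaAAATTTTTccttcagtt
DBP2, PAC, chrXIV:413475-413498, 150 bases before: acgccgatgCTCATCgcagaaaat
NIP7, RRPE, chrXVI:153348-153373, 131 bases before: cggtaatgaAAATTTTTgaaatatgc
NIP7, PAC, chrXVI:153365-153388, 116 bases before: gaaatatgcGATGAGcttagaact
NSR1, RRPE, chrVII:807845-807870, 198 bases before: tttttggtgAAAAATTTgcaagggca
NSR1, PAC, chrVII:807829-807852, 182 bases before: caagggcagCTCATCgcaagaacg
HSP12, STRE, chrVI:107057-107079, 186 bases before: ccggtcgtcCCCCTcttgatctg
SSA4, STRE, chrV:364401-364423, 175 bases before: caataagcaAGGGGggaagctcc
HSP104, STRE, chrXII:88442-88464, 168 bases before: aaaaggcaaAGGGGcgcaaactt
The URS1 core was searched as GCCGCC, and it is shown at genes that Rpd3 and Ume6 are known to repress.
INO1, URS1 core, chrX:136065-136088, 141 bases before: ctctgcgttGGCGGCaatgttaat
SPO13, URS1 core, chrVIII:131943-131966, 90 bases before: tgagaaataGCCGCCgacaaaaag
CAR1, URS1 core, chrXVI:339780-339803, 150 bases before: ttagcggtaGCCGCCgaggggtct
HOP1, URS1 core, chrIX:226422-226445, 166 bases before: tttaacctgGGCGGCtaaattgta
Within each of DBP2, NIP7 and NSR1 the RRPE and PAC windows overlap each other, and the lower-case bases after the URS1 core of CAR1 hold an AGGGG. No AGGGG was found within 250 bases before the start of GRE1, HSP26 or YGP1, and no GCCGCC before IME2, SPO11, CAR2, PHO5 or TRK2; this says only that those letters are not in that window.

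Across the genome both strains moved the same way at the diauxic shift, and the mutant moved less. In wild type 629 genes (9.89% of 6359) were at least 2-fold higher in DS than in log, here called induced, and 2832 (44.5%) were at least 2-fold lower, here called lowered. In the mutant these counts were 480 (7.55%) and 1819 (28.6%). Wild-type and mutant changes had a Pearson r of 0.85 and a Spearman rho of 0.83 across the 6359 genes, given as a description, since genes are not independent replicates. The median gene was lower in DS by a log2 change of -0.85 (wild type) or -0.52 (mutant), and the median difference between the changes was 0.40. A difference of at least 2-fold was found for 1435 genes (22.6%) towards a higher, or less negative, change in the mutant and for 384 genes (6.04%) towards a lower one, so that 78.9% of the differences past 2-fold were higher. This split depended on the per-cell scale: with every condition centred on its median gene, which takes 0.34 off the difference, the counts were 917 and 638, and 59.0% were higher. Fewer cells in a given state and less RNA per cell cannot be told apart in these bulk cultures.

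Of the 629 genes induced in wild type, 345 were also at least 2-fold higher in the mutant, 282 were within 2-fold and 2 were at least 2-fold lower. Their median change was 1.93 in wild type and 1.13 in the mutant. For 288 of them (45.8%) the mutant change was smaller by at least 2-fold, and for 30 (4.77%) it was larger. Of the 2832 genes lowered in wild type, 1627 were at least 2-fold lower in the mutant as well, 1200 were within 2-fold and 5 were at least 2-fold higher, with median changes of -1.84 and -1.13. Among these, 1235 (43.6%) were lowered less in the mutant by at least 2-fold and 11 (0.388%) were lowered more. The wild-type change is part of the difference, so an error in a wild-type value pushes a gene into a class and its difference the opposite way, and the leaning of these counts is in part built in. Binned by the wild-type change, genes whose wild-type log2 change lay from -6 to -4 (276 genes) had median changes of -4.67 (wild type) and -2.60 (mutant), and those from 4 to 6 (58 genes) had 4.58 and 2.87.

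**Figure D1:**
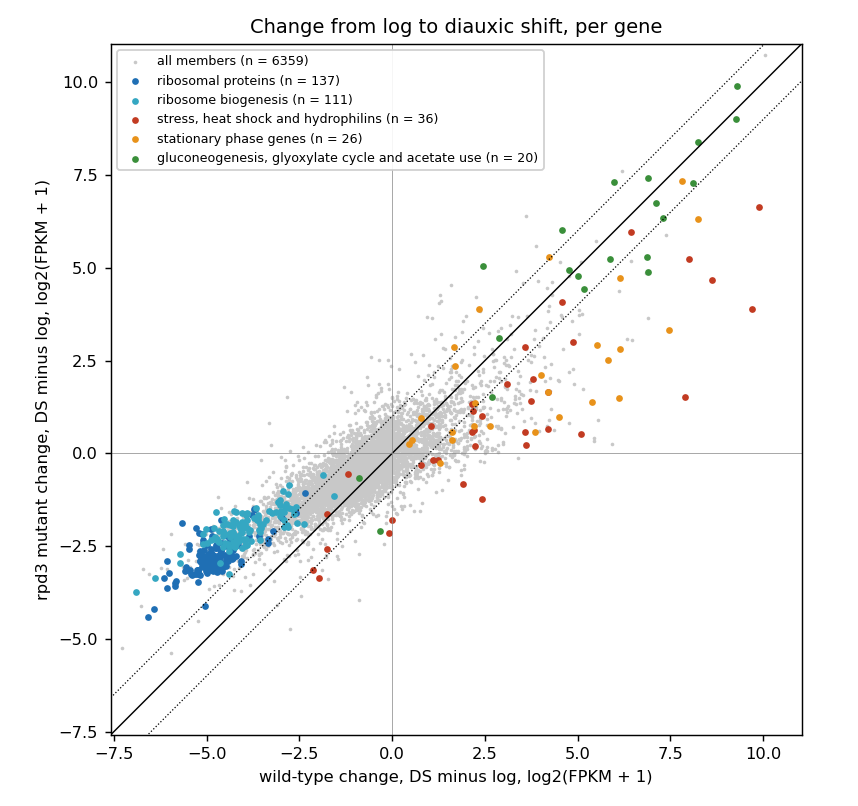
Change from log to DS in the mutant (vertical axis) against wild type (horizontal axis), both as differences of log2(FPKM + 1), 1 point per gene; the solid line marks equal changes and the dotted lines a 2-fold difference. Ribosomal protein and ribosome biogenesis genes sit above the line at strongly negative wild-type changes, and most stress and stationary phase genes sit below it at positive ones. Of the 20 gluconeogenesis genes, 13 sit between the dotted lines.

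The same 4 values can be read by harvest, because the difference of changes equals the mutant-to-wild-type difference in DS minus that in log. In log 645 genes (10.1%) were at least 2-fold higher in the mutant and 215 (3.38%) at least 2-fold lower; in DS these were 2002 (31.5%) and 226 (3.55%). The 1435 genes with a higher change were close to wild type in log, with a median genotype difference of -0.04, and above it in DS, with a median of 1.51. Of these, 1098 were at least 2-fold apart in DS only, 69 in log only, 64 at both harvests and 204 at neither. The 384 genes with a lower change had the other arrangement: their median genotype difference was 1.13 in log and -0.48 in DS, with 182 at least 2-fold apart in log only, 89 in DS only, 44 at both and 69 at neither. Within this set, 28 genes were at least 2-fold above wild type in log and at least 2-fold below it in DS. Of the 288 induced genes with a smaller mutant change, 255 lay above wild type in log and 221 lay below it in DS. Both sets were chosen on the DS difference minus the log difference, so these arrangements by harvest are in part built in. Of all 6359 genes, 1828 were at least 2-fold apart in DS only, 460 in log only, 400 at both harvests and 3671 at neither. The median genotype differences of all genes were 0.25 in log and 0.64 in DS.

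**Figure D2:**
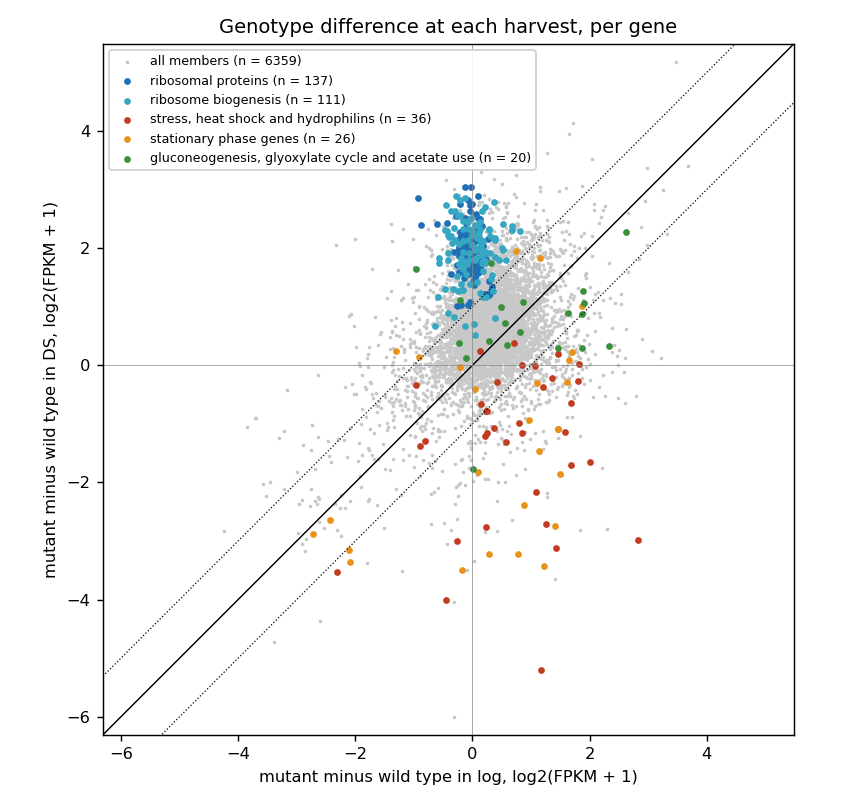
Mutant minus wild type in DS (vertical axis) against mutant minus wild type in log (horizontal axis), in log2(FPKM + 1), 1 point per gene. Ribosomal protein and ribosome biogenesis genes stand above 0 in DS at values near 0 in log, while most stress genes stand to the right of 0 in log and below 0 in DS.

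The lowest median difference of all lists was that of stress, heat shock and hydrophilin genes, whose products protect proteins and membranes in starved or dry cells. Of 36 members, 28 had a log to DS change at least 2-fold lower in the mutant and 0 a higher one, against 6.04% and 22.6% of all genes; the median was 2.42 in wild type and 0.65 in the mutant, with a median difference of -1.68. In 25 of the 36 the mutant was above wild type in log and below it in DS. Median genotype differences of the list were 0.82 in log and -1.11 in DS, against 0.25 and 0.64 for all genes. The 25th percentile of all genes in DS was 0.21. Such signs depend on the per-cell scale. GRE1, a hydrophilin, had the most negative difference of any gene, with 10.4 FPKM in log-phase and 2680.0 in DS wild-type cells, against 24.5 and 71.7 in mutant cells. That is a log2 change of 7.88 in wild type and 1.51 in the mutant, with a difference of -6.37. The mutant was above wild type in log by 1.16 on the log2 scale, and its DS level stood at -5.21 against wild type. HSP26, a small heat shock chaperone, was at 6.95 and 6649 FPKM in wild-type log and DS and 55.5 and 843 in mutant log and DS. Its level in mutant log was already 2.83 above wild type on the log2 scale, and its difference was -5.81. HSP12, a small heat shock protein of membranes, was at 37.8 FPKM in wild-type log and 15297 in wild-type DS, against 91.3 and 2336 in the mutant. Its difference was -3.96, with the genotypes 1.25 apart in log and -2.71 in DS.

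Other members of this list shared the pattern to different degrees. SIP18, another hydrophilin, was at 5.50 FPKM in log-phase and 6195 in DS wild-type cells, against 12.8 and 1379.6 in mutant cells, which gives a log2 change of 9.90 in wild type and 6.64 in the mutant, with a difference of -3.25. DDR2, a multistress response gene, was at 13.9 and 3787 FPKM in wild-type log and DS and 11.5 and 470.2 in mutant log and DS, with a difference of -2.75. YGP1, which encodes a secreted glycoprotein of starved cells, was at 33.0 FPKM in wild-type log and 1152 in wild-type DS, against 90.4 and 131 in the mutant; the mutant was close to flat, with a change of 0.53. The cytosolic catalase gene CTT1 was at 13.1 FPKM in log-phase and 167 in DS wild-type cells, against 15.6 and 23.9 in mutant cells, and in log it lay 0.23 above wild type. Here the low value in mutant DS, -2.76 against wild type, makes up most of the difference. In contrast, PRX1, the mitochondrial peroxiredoxin, was at 45.9 and 656 FPKM in wild-type log and DS and 165 and 662 in mutant log and DS. Its difference of -1.81 came from log, where the mutant was 1.83 above wild type, while the DS values lay 0.01 apart.

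Among chaperone genes of this list, SSA4, HSP104 and HSP82 were higher in DS in wild type, while SSA1 was flat and SSE1 lower. The stress Hsp70 gene SSA4 was at 13.5 FPKM in wild-type log and 76.9 in wild-type DS, against 56.9 and 23.8 in the mutant: at least 2-fold higher in DS in wild type and at least 2-fold lower in the mutant. HSP104, the disaggregase, was at 203 FPKM in log-phase and 954 in DS wild-type cells, against 367 and 425 in mutant cells, with changes of 2.22 and 0.21. HSP82, an Hsp90 gene, was at 162 and 613 FPKM in wild-type log and DS and 487 and 277 in mutant log and DS, with changes of 1.92 and -0.81. In all 3 the mutant was higher in log and lower in DS. SSA1, a constitutive Hsp70 gene, was at 1128 FPKM in wild-type log and 1127 in wild-type DS, against 1962 and 568 in the mutant, flat in wild type and -1.79 in the mutant. STI1, the Hsp90 co-chaperone, was at 250.4 FPKM in log-phase and 374 in DS wild-type cells, against 449 and 151 in mutant cells, and SSE1, the Hsp110 exchange factor, at 1242 and 318 FPKM in wild-type log and DS and 1476 and 142 in mutant log and DS. Their differences were -2.14 and -1.41. Of the 8 members of the stress list within 2-fold in either direction, 2 were MSN2 and MSN4, the genes of the STRE-binding activators, with differences of 0.11 and 0.62. HSP30, a plasma membrane heat shock gene, was within 2-fold too, at 57.1 FPKM in wild-type log and 5011 in wild-type DS, against 30.1 and 1931 in the mutant.

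Stationary phase genes, whose products are needed or abundant in cells that have stopped dividing, had the next lowest median. Of 26 members 17 (65.4%) had an at least 2-fold lower change in the mutant and 3 (11.5%) a higher one, against 6.04% and 22.6% of all genes, with a median of 3.92 in wild type, 1.57 in the mutant and -1.51 for the difference. SPG1, a survival gene of this phase, was at 3.57 FPKM in log-phase and 798 in DS wild-type cells, against 11.1 and 119 in mutant cells. FMP45, a membrane protein gene linked to sporulation, was at 5.18 and 428 FPKM in wild-type log and DS and 13.3 and 39.0 in mutant log and DS, with a difference of -4.64. NQM1, a transaldolase gene, was at 7.30 FPKM in wild-type log and 468 in wild-type DS, against 6.29 and 40.8 in the mutant; the mutant and wild type lay -0.19 apart in log and -3.49 in DS. Genes of the pentose phosphate pathway were not a list here. TKL2, a transketolase gene of it, was at 8.21 FPKM in log-phase and 430.2 in DS wild-type cells, against 32.0 and 60.1 in mutant cells, and GND2, a phosphogluconate dehydrogenase gene, at 6.40 and 166 FPKM in wild-type log and DS and 7.99 and 16.9 in mutant log and DS. The members against the list were RGI1, a respiratory growth gene with a difference of 1.54, SNZ1, of vitamin B6 synthesis, at 1.20, and FMP43, a mitochondrial pyruvate carrier gene, at 1.06. RGI2, the paralog of RGI1, was nearly the same in both strains, at 1.07 FPKM in wild-type log and 461 in wild-type DS, against 1.13 and 346 in the mutant.

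**Figure D3:**
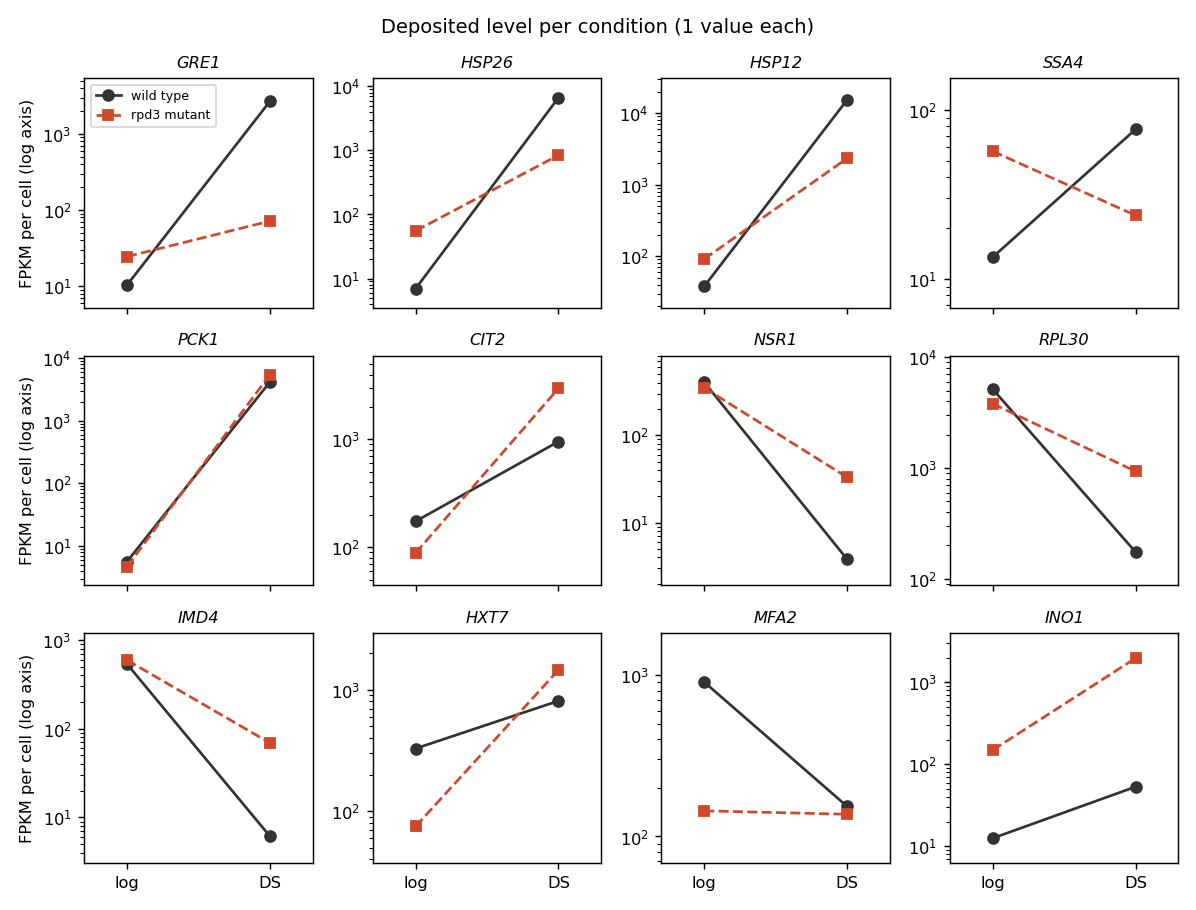
Deposited level of 12 genes in log and DS, in FPKM per cell on a log axis, with wild type as circles and the mutant as squares; each point is the single deposited value, with no error bar. GRE1, HSP26, HSP12 and SSA4 cross or converge, NSR1, RPL30 and IMD4 start together in log and part in DS, and INO1 stays apart at both harvests.

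Several further groups of the starvation program had smaller changes in the mutant: autophagy, trehalose and glycogen, and beta-oxidation genes. Their median genotype differences in DS were 0.08, -0.29 and 0.04, against 0.64 for all genes. In DS 1, 1 and 2 members were at least 2-fold below wild type and 1, 2 and 1 above, against 3.55% and 31.5% of all genes. Among those below were ATG34, SPS19 and IDP3, at -1.87, -3.05 and -1.60. Of 26 autophagy and vacuolar protease genes 10 (38.5%) had a lower change by at least 2-fold and 0 a higher one, against 6.04% and 22.6% of all genes, with a median of 0.75 in wild type and a value near 0 in the mutant. All 26 were above wild type in log in the mutant and 10 of them were below it in DS. Most genes lay above wild type too, with 25th percentiles over all genes of -0.07 in log and 0.21 in DS. The median genotype difference in log was 0.83 for the 26, against 0.25 for all genes. PEP4, the vacuolar proteinase A, was at 361 FPKM in log-phase and 855 in DS wild-type cells, against 899 and 876 in mutant cells, and PRB1, proteinase B, at 163 and 441 FPKM in wild-type log and DS and 461 and 423 in mutant log and DS. In both genes the mutant log value lay close to the DS values of both strains. For trehalose and glycogen genes the count was 5 lower and 2 higher of 21 (23.8% and 9.52%), with a median difference of -0.66. Within this list GDB1, the glycogen debranching enzyme, was at 13.8 FPKM in wild-type log and 155 in wild-type DS, against 34.2 and 162 in the mutant, whereas GSY1, a glycogen synthase gene, was at 42.0 FPKM in log-phase and 30.6 in DS wild-type cells, against 10.3 and 31.3 in mutant cells and had a higher change in the mutant, with a difference of 1.96. For peroxisomal beta-oxidation 5 of 17 (29.4%) were lower and 0 higher, with FOX2, the multifunctional enzyme of the pathway, at 11.1 and 158 FPKM in wild-type log and DS and 37.5 and 124 in mutant log and DS. POT1, the thiolase of the same pathway, was at 6.71 FPKM in wild-type log and 153 in wild-type DS, against 4.69 and 109 in the mutant and had a difference of -0.05.

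Most genes of the switch to ethanol and acetate use were higher in DS in both strains. Of 20 genes of gluconeogenesis, the glyoxylate cycle and acetate use, 18 were at least 2-fold higher in DS in wild type. In the mutant 18 were as well, and the median changes were 5.91 (wild type) and 5.27 (mutant). The mutant change was lower by at least 2-fold for 4 (20%) and higher for 3 (15%), against 6.04% and 22.6% of all genes. The median difference was -0.24, below the 0.40 of all genes. FBP1, fructose bisphosphatase, was at 8.50 FPKM in log-phase and 2880.3 in DS wild-type cells, against 10.6 and 3848 in mutant cells, and MLS1, malate synthase, at 4.03 and 3098 FPKM in wild-type log and DS and 7.80 and 4567 in mutant log and DS. Their differences of 0.13 and -0.25 are small beside changes of more than 8 log2 units in both strains. ICL1, isocitrate lyase, was at 25.3 FPKM in wild-type log and 3163 in wild-type DS, against 35.9 and 6286 in the mutant. The 4 lower members were ACS1, IDP2, ALD4 and ATO3. ACS1, acetyl-CoA synthetase, was at 9.88 FPKM in log-phase and 1295 in DS wild-type cells, against 53.9 and 1635 in mutant cells; its DS values lay 0.34 apart, so its lower change goes with the log values. ATO3, of the ammonium and acetate transporter family, was at 98.1 and 78.1 FPKM in wild-type log and DS and 98.98 and 22.3 in mutant log and DS and was the one of these 4 with a lower DS value in the mutant. The 3 higher members were CIT2, YAT2 and JEN1. CIT2, the peroxisomal citrate synthase, was at 174 FPKM in wild-type log and 955 in wild-type DS, against 88.3 and 2978 in the mutant, that is a log2 change of 2.45 in wild type and 5.06 in the mutant, with a difference of 2.61. JEN1, the lactate and pyruvate carrier, was at 7.87 FPKM in log-phase and 554 in DS wild-type cells, against 6.62 and 1205 in mutant cells.

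Respiratory genes had close median changes in the 2 strains. For 17 TCA cycle genes the median change was 2.71 in wild type and 2.62 in the mutant. The mutant change was at least 2-fold higher for 2 members (11.8%) and lower for 2 (11.8%). For 39 nuclear genes of oxidative phosphorylation both medians were 1.66, with 2 higher (5.13%) and 3 lower (7.69%). Of all genes 22.6% were higher and 6.04% lower, so both lists had a smaller share higher than all genes. Both list medians of the difference, -0.04 and -0.17, lay below the 0.40 of all genes. Single members went apart in both directions. NDE2, an external NADH dehydrogenase, was at 3.61 and 552 FPKM in wild-type log and DS and 27.0 and 352 in mutant log and DS, with a difference of -3.25. CYC1, iso-1-cytochrome c, was at 347 FPKM in wild-type log and 906 in wild-type DS, against 276 and 1967 in the mutant, with a difference of 1.45. HAP4, the regulatory subunit of the activator of respiratory genes, was at 135 FPKM in log-phase and 148 in DS wild-type cells, against 102 and 286 in mutant cells, with a difference of 1.34.

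Genes for making ribosomes stood at the other end: they were lower in DS in both strains, and less so in the mutant. Of 137 cytosolic ribosomal protein genes, 134 had an at least 2-fold higher change in the mutant and 0 a lower one, against 22.6% and 6.04% of all genes. The median change was -4.87 in wild type and -2.89 in the mutant, with a difference of 2.02. The genotypes lay a median of -0.05 apart in log and 1.95 in DS, and all 137 were at least 2-fold higher in mutant DS. RPL30 was at 5149 and 174 FPKM in wild-type log and DS and 3803 and 933 in mutant log and DS, RPL3 at 6946 FPKM in wild-type log and 237 in wild-type DS, against 6383 and 1358 in the mutant, and RPS3 at 5989 FPKM in log-phase and 91.8 in DS wild-type cells, against 5789 and 619.5 in mutant cells. For each of these the strains were close in log, and the mutant level in DS was several-fold higher. The 3 ribosomal protein genes just under 2-fold were RPS30A, RPS22B and RPL15B, with differences of 0.92, 0.93 and 1.00. RPL22A had the largest difference of the list, 3.79, from 114 and 1.26 FPKM in wild-type log and DS and 59.2 and 15.3 in mutant log and DS. Many ribosomal protein genes come as near-identical pairs, so the split of reads within a pair is uncertain.

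Ribosome biogenesis genes, whose products process rRNA and assemble subunits in the nucleolus, followed closely. Of 111 members 104 (93.7%) had a higher change by at least 2-fold and 0 a lower one, against 22.6% and 6.04% of all genes. The median change was -4.04 in wild type, and the median difference was 1.93. DBP2, an RNA helicase, was at 618 FPKM in wild-type log and 4.14 in wild-type DS, against 453 and 33.1 in the mutant. NSR1, the yeast nucleolin, was at 405 FPKM in log-phase and 3.82 in DS wild-type cells, against 349.7 and 33.1 in mutant cells. NIP7, needed for the large subunit, was at 341 and 11.7 FPKM in wild-type log and DS and 282 and 92.9 in mutant log and DS. These are 3 of the genes whose RRPE and PAC elements are shown above, and all have mutant log values below or near the wild-type ones. The smallest differences of the list were those of RIO1 and RRP7, 0.42 and 0.47. SNU13, a protein of both the spliceosome and box C/D snoRNPs, was at 1469 FPKM in wild-type log and 29.6 in wild-type DS, against 935 and 170.4 in the mutant.

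Further lists of growth genes differed among themselves, against 22.6% higher and 6.04% lower of all genes. Of 24 subunits of RNA polymerases I and III, 22 had a higher change by at least 2-fold and 0 a lower one, with a median difference of 1.59; RPA49, a polymerase I subunit, was at 235 FPKM in log-phase and 5.33 in DS wild-type cells, against 209.8 and 37.0 in mutant cells. The 7 subunits of RNA polymerase II listed had a median difference of 0.43, close to that of all genes, with 1 at least 2-fold higher. For 33 translation factors the count was 18 higher and 0 lower, with a median difference of 1.01. For mitochondrial ribosomal proteins it was 13 higher and 2 lower of 75 (17.3% and 2.67%), a share higher that was below the one of all genes, with a median of 0.58. Of 20 genes of GTP and purine synthesis 15 were higher and 0 lower, with a median of 1.53. IMD4, an IMP dehydrogenase, was at 535 and 6.15 FPKM in wild-type log and DS and 592 and 69.1 in mutant log and DS, and GUA1, GMP synthase, at 962 FPKM in wild-type log and 32.9 in wild-type DS, against 832 and 212 in the mutant. AAH1, adenine deaminase, was at 239.9 FPKM in log-phase and 5.41 in DS wild-type cells, against 237 and 37.6 in mutant cells. The IMP dehydrogenase gene IMD2 was unlike its paralogs in level, at 198 and 15.3 FPKM in wild-type log and DS and 15.6 and 2.998 in mutant log and DS, and its genotype difference was -3.58 in log and -2.03 in DS. URA7, CTP synthase, had a difference of 3.62, from 381 FPKM in wild-type log and 4.23 in wild-type DS, against 368 and 61.4 in the mutant.

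**Figure D4:**
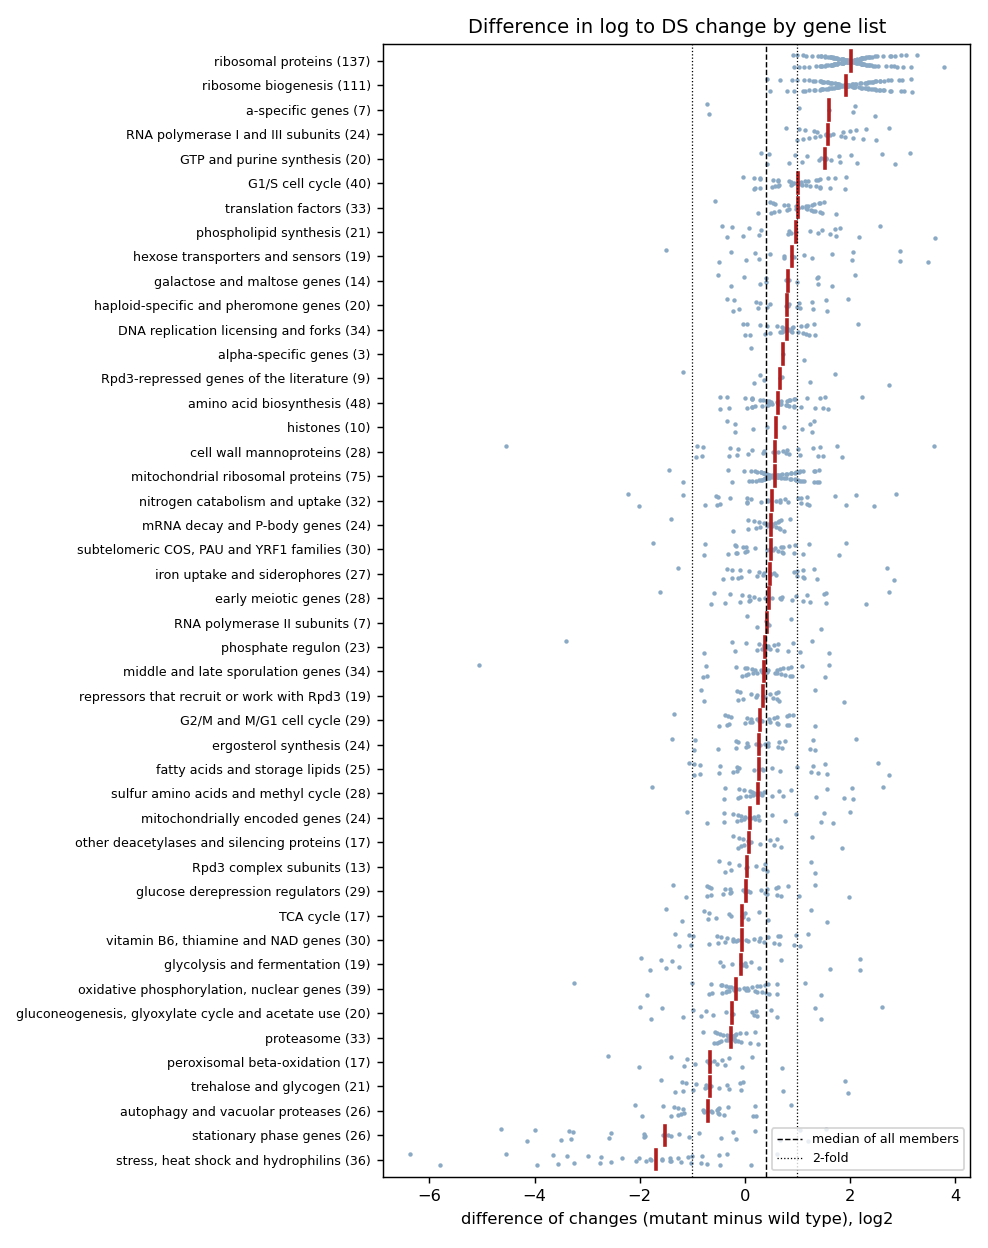
Difference of the log to DS change (mutant minus wild type, log2) for every member of the 46 gene lists, with the number of members in parentheses; points are genes, red bars list medians, the dashed line the median of all 6359 genes and dotted lines 2-fold. Medians run from -1.68 for stress genes to 2.02 for ribosomal proteins.

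A small set of genes was lowered further in the mutant, and part of glycolysis was in it. Of the 19 genes in the list of glycolysis and fermentation 6 (31.6%) had an at least 2-fold lower change in the mutant and 3 (15.8%) a higher one, against 6.04% and 22.6% of all genes. GPM1 and PGK1 were among the 11 genes lowered in wild type with an at least 2-fold lower mutant change. GPM1, phosphoglycerate mutase, was at 7929 FPKM in log-phase and 1181 in DS wild-type cells, against 8018 and 301 in mutant cells; the log values were nearly equal, and mutant DS was -1.97 against wild type. PGK1, phosphoglycerate kinase, was at 4269.9 and 1546 FPKM in wild-type log and DS and 4405 and 613 in mutant log and DS, and ENO1, an enolase gene, at 3137 FPKM in wild-type log and 1682 in wild-type DS, against 2594 and 398 in the mutant. TDH1, a glyceraldehyde phosphate dehydrogenase gene, was at 444 FPKM in log-phase and 858 in DS wild-type cells, against 294 and 201 in mutant cells. Other glycolytic genes were close between the strains or went the other way. ADH1, TPI1 and PFK1 had differences of -0.24, 0.02 and -0.01, and HXK2, the main glucose hexokinase, was at 1418 and 28.1 FPKM in wild-type log and DS and 1609 and 149 in mutant log and DS. TYE7, the gene of a transcription factor of glycolytic genes, was at 60.2 FPKM in wild-type log and 31.8 in wild-type DS, against 70.2 and 3.58 in the mutant, and its value in mutant DS was -2.84 against wild type. GCR1, another activator of glycolytic genes, was at 36.0 FPKM in log-phase and 14.5 in DS wild-type cells, against 28.8 and 17.6 in mutant cells.

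Genes that Rpd3 is known to repress stood higher in the mutant at both harvests, so their log to DS change differed less than their level. All 9 genes of this list, taken from the literature, were above wild type in log and in DS. Their median genotype differences were 1.81 in log and 2.21 in DS, against 0.25 and 0.64 for all genes. For 3 (33.3%) the change was higher by at least 2-fold and for 1 (11.1%) lower, against 22.6% and 6.04% of all genes. INO1, inositol phosphate synthase, was at 12.6 and 53.3 FPKM in wild-type log and DS and 149.7 and 1970.0 in mutant log and DS, the highest positive genotype difference of any gene in DS. IME2, the meiotic kinase, was at 8.43 FPKM in wild-type log and 4.90 in wild-type DS, against 17.8 and 77.5 in the mutant: it was lower in DS in wild type and higher in the mutant. CAR1, arginase, was at 101 FPKM in log-phase and 81.2 in DS wild-type cells, against 431 and 549.5 in mutant cells. PHO5, the secreted acid phosphatase, was at 194 and 62.6 FPKM in wild-type log and DS and 702 and 294 in mutant log and DS. HOP1, a meiotic axis protein, was at 5.96 FPKM in wild-type log and 4.76 in wild-type DS, against 23.4 and 21.98 in the mutant. SPO13, a meiosis I regulator, was at 3.65 FPKM in log-phase and 1.27 in DS wild-type cells, against 6.37 and 7.44 in mutant cells, and SPO11, the recombination nuclease, at 3.64 and 2.67 FPKM in wild-type log and DS and 13.0 and 17.0 in mutant log and DS. TRK2, a potassium transporter, was at 30.1 FPKM in wild-type log and 26.7 in wild-type DS, against 71.2 and 78.0 in the mutant. The exception in direction was CAR2, ornithine transaminase, at 28.4 FPKM in log-phase and 45.6 in DS wild-type cells, against 122 and 85.0 in mutant cells, with a difference of -1.18.

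Early meiotic genes, a list that shares HOP1, IME2, SPO11 and SPO13 with the one above, also stood mostly higher in the mutant. Of 28 members, 26 were above wild type in log and 27 in DS in the mutant. Their median genotype differences were 0.93 in log and 1.84 in DS, against 0.25 and 0.64 for all genes. At least 2-fold higher changes were found for 8 (28.6%), IME2 and SPO13 among them, and lower ones for 1 (3.57%). The shares of all genes were 22.6% and 6.04%. The median difference was 0.47 against 0.40 for all genes. MND1, of meiotic recombination, was at 1.46 and 0.989 FPKM in wild-type log and DS and 30.4 and 19.9 in mutant log and DS, so that the genotypes were 3.67 apart in log, the highest positive value of any gene, and 3.40 in DS. SPO16, of the synapsis complex, was at 5.83 FPKM in wild-type log and 1.31 in wild-type DS, against 20.5 and 34.7 in the mutant. The one lower member was REC114, at 3.74 FPKM in log-phase and 26.9 in DS wild-type cells, against 17.8 and 34.9 in mutant cells.

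Hexose transporter genes were mostly below wild type in mutant log and on either side of it in DS. The mutant was below wild type in log for 17 of 19 members and in DS for 9. Median genotype differences were -1.10 in log and 0.21 in DS, against 0.25 and 0.64 for all genes. In log 0 members were at least 2-fold higher and 10 lower, against 10.1% and 3.38% of all genes. In DS 4 were higher and 5 lower, against 31.5% and 3.55%. An at least 2-fold higher change was found for 8 (42.1%) and a lower one for 1 (5.26%), against 22.6% and 6.04% of all genes. HXT7, a high-affinity transporter, was at 328 and 808 FPKM in wild-type log and DS and 74.96 and 1453 in mutant log and DS, and HXT6, its near-identical neighbor, at 298 FPKM in wild-type log and 904 in wild-type DS, against 70.4 and 1662 in the mutant, where reads of the pair cannot be told apart with confidence. Both were induced in each strain and more so in the mutant. HXT4 was at 118 FPKM in log-phase and 3.62 in DS wild-type cells, against 45.0 and 19.2 in mutant cells and HXT2 at 1250.2 and 7.02 FPKM in wild-type log and DS and 998 and 25.3 in mutant log and DS, lowered in both strains and less in the mutant. HXT5, the transporter of slow-growing cells, was the one lower member, at 10.2 FPKM in wild-type log and 1879 in wild-type DS, against 9.81 and 641 in the mutant.

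Genes of mating type a were expressed in both strains. Of the 3 alpha-specific genes among the members, STE3, the receptor gene, stayed at or below 1.54 FPKM in the 4 conditions, while MF(ALPHA)2, an alpha-factor gene, was at 10.4 FPKM in log-phase and 6.12 in DS wild-type cells, against 8.69 and 12.1 in mutant cells, and SAG1, the alpha-agglutinin gene, at 12.1 and 11.3 FPKM in wild-type log and DS and 19.3 and 19.7 in mutant log and DS. Of 7 a-specific genes 5 (71.4%, against 22.6% of all genes) had a higher change by at least 2-fold and 0 a lower one, with a median of 1.60. MFA2, an a-factor gene, was at 903 FPKM in wild-type log and 154 in wild-type DS, against 144 and 137 in the mutant, and STE2, the alpha-factor receptor, at 362 FPKM in log-phase and 22.8 in DS wild-type cells, against 121 and 33.2 in mutant cells. The mutant was at least 2-fold below wild type in log for 5 of the 7, and in DS for 2 of them. AGA2 and ASG7 were unlike the other five, with differences of -0.69 and -0.72.

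Cell cycle, lipid and iron lists ranged from shares well above the 22.6% higher of all genes to shares near or below it. Of 40 G1/S genes, 21 (52.5%) were at least 2-fold higher in change and 0 lower, with median changes of -1.86 in wild type and -0.92 in the mutant. CLN3, the G1 cyclin that acts first at Start, was at 81.6 and 14.02 FPKM in wild-type log and DS and 81.0 and 54.6 in mutant log and DS, and RNR1, ribonucleotide reductase, at 251 FPKM in wild-type log and 17.7 in wild-type DS, against 301 and 84.7 in the mutant. For DNA replication genes the count was 10 higher and 0 lower of 34, and the 29.4% higher was near that of all genes. G2/M and M/G1 genes had 1 higher and 1 lower of 29 and a median difference of 0.28, whose sign turned to -0.02 when every condition was centred on its median gene. Of 21 phospholipid synthesis genes 10 (47.6%) were higher and 0 lower, with PIS1, phosphatidylinositol synthase, at 299 FPKM in log-phase and 13.1 in DS wild-type cells, against 425 and 119 in mutant cells. FET3, the iron-uptake oxidase, was at 352 and 50.9 FPKM in wild-type log and DS and 228 and 240.0 in mutant log and DS, in a list of 27 iron genes with 7 higher (25.9%) and 1 lower (3.70%), shares near those of all genes. The 33 proteasome genes had no member 2-fold apart in either direction and a median difference of -0.27.

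Other genes among the largest positive differences had different functions. PRM7, a pheromone-regulated gene, was at 59.3 FPKM in wild-type log and 7.43 in wild-type DS, against 11.1 and 33.8 in the mutant, with a difference of 4.37, the highest of all members, and BSC1 was at 83.9 FPKM in log-phase and 7.51 in DS wild-type cells, against 20.2 and 36.7 in mutant cells; both lie on chromosome IV of the reference. UTR2, a cell wall transglycosylase, was at 921 and 7.77 FPKM in wild-type log and DS and 677 and 77.3 in mutant log and DS. PDR12, a weak acid exporter, was at 72.9 FPKM in wild-type log and 48.6 in wild-type DS, against 35.8 and 221 in the mutant, lower in DS in wild type and higher in the mutant. CUP1-2, a metallothionein gene with a near-identical copy, was at 2081 FPKM in log-phase and 3970.2 in DS wild-type cells, against 230.4 and 2969 in mutant cells, and the genotypes were -3.17 apart in log but -0.42 in DS. DAL5, an allantoate transporter gene, was at 15.8 and 12.1 FPKM in wild-type log and DS and 10.8 and 66.7 in mutant log and DS. The frame YOR309C, at 347 FPKM in wild-type log and 4.54 in wild-type DS, against 131 and 28.5 in the mutant, had the third highest difference, 3.81. The ribosomal protein genes RPL39, RPS26B and RPS28B were among the 15 highest as well, with differences of 3.27, 3.16 and 3.06. Among genes induced in wild type the highest were HXT7 and HXT6, with differences of 2.96 and 2.94. Next came the noncoding RUF5-1 and RUF5-2, a pair with nearly the same values, at 2.80 each, and YDR119W-A at 2.79. RUF5-1, RUF5-2 and YDR119W-A were below wild type in mutant log, by log2 differences of -3.71, -3.70 and -3.84. Among genes within 2-fold in wild type, YER078W-A and SRT1, a prenyltransferase gene, had differences of 2.61 and 2.41.

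Several frames and less studied genes stood at the negative extreme too. The frame YCL048W-A was at 3.30 FPKM in log-phase and 261 in DS wild-type cells, against 2.44 and 3.08 in mutant cells, with a genotype difference of -6.01 in DS, the most negative of any gene. SPS100, a spore wall gene, was at 4.13 and 223 FPKM in wild-type log and DS and 12.6 and 16.9 in mutant log and DS. The frame YBR116C was at 4.09 FPKM in wild-type log and 218 in wild-type DS, against 23.9 and 30.6 in the mutant. In all 3 the mutant change was within 2-fold, and the wild-type change was above 5 log2 units. FMP16, of the stationary phase list, ECM4, a glutathione transferase gene, and PHM7, of the phosphate list, had differences of -3.995, -3.45 and -3.40. HSP33 and HSP32, near-identical members of the Hsp31 family whose reads may not be told apart, were at or below 1.67 FPKM in both mutant conditions, against 42.9 and 35.3 in wild-type DS. Among genes within 2-fold in wild type, AHP1, a peroxiredoxin gene, was at 725 FPKM in log-phase and 688 in DS wild-type cells, against 2527 and 571 in mutant cells, and GRE2, a methylglyoxal reductase gene, had a difference of -1.86; both were above wild type in mutant log. YCP4 and YOL047C had differences of -2.32 and -2.14. Among genes lowered in wild type, YOR338W, ERG25, a sterol oxidase gene, and DSE4, a daughter-cell glucanase gene, had differences of -1.66, -1.38 and -1.35.

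Genes of the Rpd3 complexes and of its recruiters were read as 2 lists, with ASH1 in both. With 2 genes past 2-fold in each, their shares were not tested against those of all genes. Of 13 other subunits 2 (15.4%) had an at least 2-fold higher change in the mutant and 0 a lower one. Of all genes 22.6% had a higher change and 6.04% a lower one. The median difference of the subunits was 0.04, against 0.40 for all genes, and on centring -0.27 against 0.091. The 2 higher subunits were ASH1, a daughter-cell repressor, with a difference of 1.33, and RCO1, of the small Rpd3 complex, with 1.26. UME6 was at 11.1 and 5.59 FPKM in wild-type log and DS and 34.9 and 24.8 in mutant log and DS, apart by 1.57 in log and 1.97 in DS. Of 19 repressors that recruit or work with Rpd3, 2 (10.5%), TOD6 and again ASH1, had a higher change and 0 a lower one. The median difference of the repressors was 0.34. Among them STB3 and DOT6 had differences of -0.09 and 0.66. TOD6, the paralog of DOT6, was at 80.5 FPKM in wild-type log and 8.28 in wild-type DS, against 79.7 and 32.8 in the mutant. XBP1, a repressor of starved cells, was at 7.28 FPKM in log-phase and 36.1 in DS wild-type cells, against 13.8 and 36.3 in mutant cells.

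Q cells gave a readout that the selection of members did not use, though the mutant was at least 2-fold above wild type there for 5958 of 6281 genes (94.9%), with a median of 2.82. Of the genes with a higher log to DS change in the mutant, 97.0% were at least 2-fold higher in mutant Q, with a median of 3.31. Of those with a lower change 78.8% were, with a median of 2.03, and 12 were at least 2-fold lower in mutant Q against 20 in all. These 12 included GRE1, at 1993 FPKM in quiescent wild-type cells and 489 in quiescent mutant cells, SIP18, at 1071 and 352, and CTT1, at 21.7 and 8.67. They were chosen here after their values were seen. Other stress genes with a lower change were higher in mutant Q: HSP26 was at 444 and 771, and YGP1 at 3.13 and 33.5.

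Promoter elements were not used by the selection either, and their shares differed between the classes. A promoter was taken as 250 bases before to 50 after the annotated gene start, on both strands, and 5732 members had one. The STRE (AGGGG) stood in 21.9% of all promoters, in 49.0% of those with a lower mutant change and in 13.1% of those with a higher one. Among genes induced in wild type it stood in 54.7% of the 265 with a lower mutant change and in 35.5% of the other 293. The RRPE (AAAAATTT) stood in 14.4% of all promoters, in 28.2% with a higher change and in 6.34% with a lower one, and PAC (GATGAG) in 20.2%, 31.5% and 15.6%. Ribosome biogenesis promoters held the RRPE in 85.6% and PAC in 91.9% of cases, and ribosomal protein promoters in 13.1% and 10.9%. The URS1 core (GCCGCC) stood in 5.02% of all promoters, 5.56% with a higher and 8.65% with a lower change. It was in 60.7% of early meiotic promoters, in 4 of the 9 genes known to be repressed by Rpd3, and in 24.0% of stationary phase promoters. The longer form AGCCGCCGA, which contains the core, stood in 0.611% of all. The Xbp1 element (CTCGA) stood in 25.8%, 31.3% and 21.9%. None of the other elements contains another. A match describes letters in a window and is not a binding site.

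**Figure D5:**
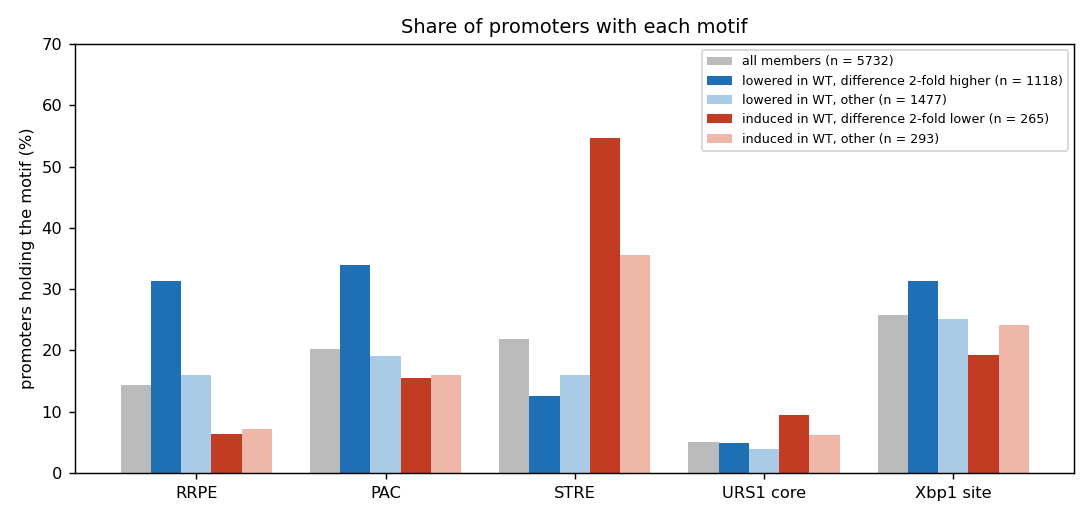
Percentage of promoters holding each element, for all members with a promoter (grey), genes lowered in wild type whose mutant change was at least 2-fold higher (dark blue) or not (light blue), and genes induced in wild type whose mutant change was at least 2-fold lower (dark red) or not (light red). RRPE and PAC stand highest in the dark blue class, at 31.4% and 33.9%, and STRE in the dark red class, at 54.7%.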

How the data were processed

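Per the labels' protocols, ERCC spike-in RNA was added to total RNA, ribosomal RNA was removed and strand-specific libraries were made by the dUTP method. CASAVA, TopHat2, SAMtools, Cuffdiff and Cufflinks 2.2.1 are listed in the submitters' processing notes; the genome build used was not given in the sources used here. Per the table's name and the series' design text, the authors brought FPKM to a per-cell scale with the spike-ins, and the values were deposited as log2 in 6 columns, 1 value per condition. No source states the way isolates were merged. Base 2 was inferred: the sum over genes of FPKM times length in kilobases came to 1288200.0 in wild-type log with base 2. That is near what FPKM scaled to the sequenced total sums to, though per-cell scaling need not keep that sum.

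Values were turned back to FPKM and changes taken on log2(FPKM + 1), which understates changes of genes near 1 FPKM. In mutant DS, 108 values over 109 rows repeat the start of mutant Q, 107 of them equal to 3 decimals, and were left out. With 1 value per condition there is no replicate, no test and no depth; counts are of differences of at least 2-fold. Of 6598 names 5924 matched the RefSeq R64 reference (S288C), as did 5763 members, and its positions are not the authors'. The members and the 46 gene lists were chosen with earlier results of these data known. Genes named were, among those with at least 10 FPKM, the 15 largest differences each way with a standard name and systematic names among the 5 largest, which makes 33 genes, and the 5 largest of each class by the same rule. All genes of the Rpd3-repressed list were named. From the other lists only some of the up to 4 members with the largest difference each way are given, and further genes are examples chosen after their values were seen. Alternatives were other pseudocounts, filters, thresholds, centring on the median gene, keeping the repeated stretch, and a shorter promoter. The scripts were tested on simulated data. Python 3.11.15, pandas 2.3.3 and numpy 2.4.6 were used.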

Additional observations from a re-analysis of the deposited data

Results flagged for a closer look

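There were 7 genes that went at least 2-fold one way from log to DS in wild type and at least 2-fold the other way in the mutant. With 1 value per condition the difference between the genotypes was not tested for any of them, and they are given as values. SSA4, the stress Hsp70 gene, had a log2 change of 2.43 in wild type and -1.23 in the mutant, with a difference of -3.65. PEX22, a peroxisomal membrane gene, had a log2 change of 1.18 in wild type and -1.04 in the mutant, with a difference of -2.23, from 11.5 and 27.4 FPKM in wild type and 45.9 and 21.8 in the mutant. YAH1, the mitochondrial ferredoxin of iron-sulfur and heme synthesis, was at the limit of 2-fold lower in wild type, 28.0 to 13.5 FPKM, and had a change of 1.10 in the mutant, with a difference of 2.10. TAH1, a cofactor of Hsp90, had a log2 change of -1.22 in wild type and 1.15 in the mutant, with a difference of 2.38, with mutant DS at 284 FPKM against 43.8 in wild type. BIO5, a transporter of a biotin precursor, had a log2 change of -1.10 in wild type and 1.64 in the mutant, with a difference of 2.74, at levels from 3.79 to 18.1 FPKM. YLR162W, an uncharacterised frame, had a log2 change of -1.29 in wild type and 1.78 in the mutant, with a difference of 3.07. PRM7 had a log2 change of -2.84 in wild type and 1.53 in the mutant, with a difference of 4.37.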

How the results depend on the processing

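The genome-wide counts of 2-fold differences and their median were recomputed under other settings, and the median stayed above 0 in each. A pseudocount of 10 gave 745 genes with a higher change, 652 of them among genes lowered in wild type, and a median difference of 0.23. Centring every condition on its median gene gave 917 higher and 638 lower differences, 539 lower among induced and 730 higher among lowered genes, and a median of 0.091. A limit of 1.5-fold gave 2582, 721, 499 and 2222 in that order, and a limit of 4-fold 289, 97, 83 and 254. With the 250 bases before the gene start alone, the URS1 core stood in 4.10% of all promoters and 3.99% with a higher change, so that its share turned from above to below that of all, PAC in 16.9%, 28.7% and, with a lower change, 11.8%, STRE in 19.1% and 10.7%, and the Xbp1 element in 22.3% and 28.1%; the cause was not tested. Pseudocounts of 0.1 and none, the filters and the repeated stretch left every count within 1.5 times. List medians turned sign on centring for mitochondrially encoded, G2/M, glucose derepression regulator, sulfur, Rpd3 subunit, other deacetylase, ergosterol and fatty acid genes. The 33 genes named for the largest differences kept their side of the 2-fold limit under all 7 settings that apply to single genes. No paired analysis was possible because the table has 1 value per condition and no isolate columns; for the same reason no replicate could be left out.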

Other observations

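Lists of nitrogen, galactose and maltose, and amino acid genes were read against the 22.6% higher and 6.04% lower of all genes. Of 32 genes of nitrogen catabolism and uptake 11 (34.4%) had an at least 2-fold higher change in the mutant and 3 (9.38%) a lower one. MEP2, an ammonium permease, was at 114 and 38.2 FPKM in wild-type log and DS and 108 and 159 in mutant log and DS, and PUT4, the proline permease, had a difference of 1.72. The 3 lower changes were those of GAD1 and UGA2, of glutamate and GABA breakdown, and of CAR2, with differences of -2.22, -2.01 and -1.18. Of 14 galactose and maltose genes 6 (42.9%) were higher and 0 lower, and SUC2, invertase, was at 70.4 FPKM in wild-type log and 68.7 in wild-type DS, against 43.5 and 112 in the mutant. Amino acid synthesis genes gave 8 higher (16.7%) and 0 lower of 48, a share higher that was below the one of all genes; LEU9, of leucine synthesis, was at 194 FPKM in log-phase and 16.9 in DS wild-type cells, against 203 and 86.9 in mutant cells. Some core histone pairs differed within themselves: HHT1 and HHT2, both of histone H3, had differences of -0.19 and 0.74, and HHF1 and HHF2, both of histone H4, -0.18 and 1.23. HTA1 and HTA2, both of histone H2A, were close to each other, at 1.08 and 1.28. Split by mean level over the 4 conditions into 4 classes of like size, 301, 303, 369 and 462 genes had an at least 2-fold higher difference from the lowest class to the highest, and 79, 68, 105 and 132 a lower one.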
